A study of Homo sapiens with 6 samples.

Results

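The HOX genes are the homeobox transcription factor genes that lie side by side in the HOXA, HOXB, HOXC and HOXD clusters. They were taken by symbol, as every gene named HOX, a letter from A to D and a number, with a line in any of 4 lists of chromatin immunoprecipitation peaks. This gave 33 genes of the 18086 gene symbols in these lists: 9 of HOXA, 8 of HOXB, 9 of HOXC and 7 of HOXD. The RefSeq gene table (GRCh38.p14) names 39 such genes, and HOXA3, HOXA4, HOXB2, HOXB13, HOXD4 and HOXD8 had no line in any list.

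The study compared HL-60 cells knocked out for JMJD3 with parental HL-60 cells. HL-60 is a human promyelocytic leukaemia line, labelled as myeloblast, and JMJD3, encoded by KDM6B, is a demethylase of lysine 27 of histone H3. DNA bound to histones with H3K4me3 or H3K27me3 was isolated by antibody and sequenced (ChIP-seq), with 1 library per genotype and mark; the 2 input libraries were not analysed here. Both genotypes were grown in DMEM with serum, and the labels name no treatment. The labels give neither the number of knockout clones nor how the gene was disrupted, and the mark of the H3K27me3 libraries comes from their titles, since their antibody label names H3K4me3. With 1 library per group, differences have no replicate check and were not tested.

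HOX genes specify position along the body axis, and their order in a cluster follows the order in which they are used from head to tail, with low numbers at the anterior end and high numbers at the posterior end. Polycomb complexes place H3K27me3 over silent HOX clusters, and KMT2 complexes place H3K4me3 over active or poised ones, which makes the clusters a classical place to look for H3K27 demethylase function. In blood, HOX genes of the A and B clusters are active in stem and progenitor cells and are shut down as myeloid cells mature, and HOXA9 is highly expressed in many acute myeloid leukaemias.

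The lists held 24943 knockout and 33470 parental H3K4me3 peaks, and 3234 knockout and 3578 parental H3K27me3 peaks. They give no read counts or peak heights, so the depth is unknown, and they hold only peaks with a centre under 20 kb from a transcript start site (TSS). A difference in depth or in enrichment between libraries cannot be told apart from a difference between genotypes. Of 9 fixed myeloblast markers, 7 had promoter H3K4me3 in knockout and in parental cells, among them MPO and CEBPE. Over all listed genes the share was 62.9% in knockout and 71.3% in parental cells, so the myeloblast count lay near it. None of the 2 listed epithelial and the 3 listed fibroblast markers had promoter H3K4me3 in either genotype. A neuronal marker, TUBB3, had 170 bp in parental cells only. KDM6B had 710 bp of promoter H3K4me3 in knockout cells, against 3041 bp in parental cells, and a promoter mark is no check of a knockout.

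H3K4me3 was sparse over the HOX clusters, and sparser in the knockout list. The 4 clusters together held 9 peaks covering 2153 bp in knockout cells, against 28 peaks covering 9540 bp in parental cells. HOXB had 0 peaks in knockout cells and 4 in parental cells, HOXC 1 and 10, HOXD 3 and 8, and HOXA 5 and 6. The HOXA peaks covered 1299 bp in knockout cells and 2963 bp in parental cells, and 4 of the 6 parental ones overlapped a knockout peak. With peaks of at least 300 bp, HOXA had 1 in knockout and 5 in parental cells.

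**Figure D1:**
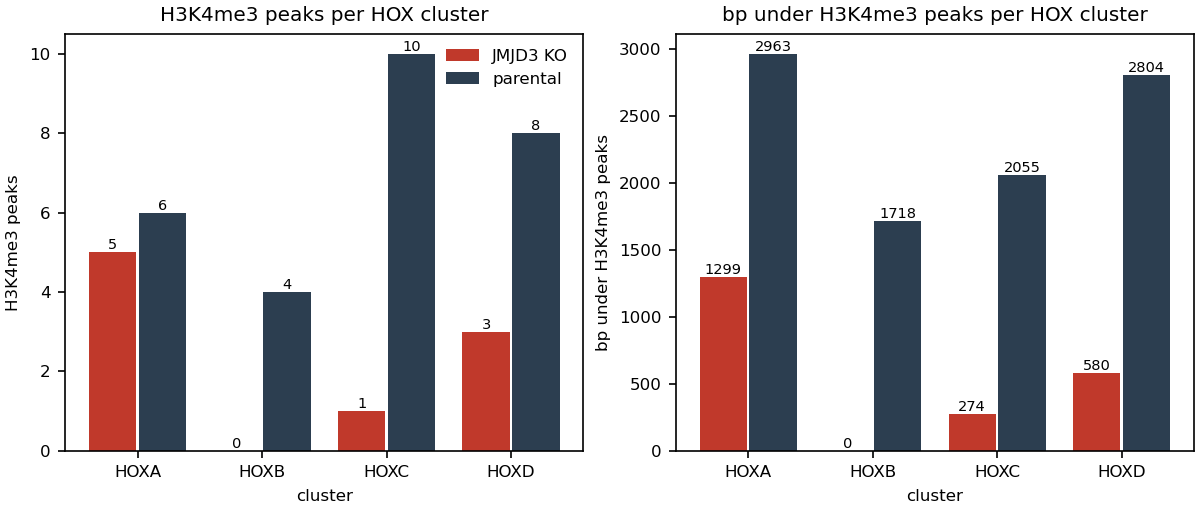
Number of distinct H3K4me3 peaks (left) and base pairs under them (right) in each HOX cluster, in knockout (red) and parental (dark) cells, 1 library each. The HOXB bars are at 0 in knockout cells, and HOXA has 5 knockout and 6 parental peaks.

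The ratio of knockout to parental peak number was 0.321 over the 4 clusters, with an exact 95% interval of 0.133 to 0.701 that covers counting error only. Over the whole lists it was 0.745 (0.733 to 0.758). The interval of the clusters thus lay below the whole-list value, but neighbouring peaks are not independent and the interval leaves out any difference between libraries. Cluster by cluster, the ratio was 0.833 for HOXA (0.201 to 3.28), 0.1 for HOXC (0.0023 to 0.703) and 0.375 for HOXD (0.0641 to 1.56), while the 0 knockout peaks of HOXB have an upper bound of 1.51. Peaks up to 1 Mb either side of the outermost listed start sites, without those of HOX genes, gave 0.486 around HOXA (18 knockout and 37 parental peaks), 0.868 around HOXB (66 and 76), 0.578 around HOXC (67 and 116) and 0.75 around HOXD (12 and 16). With all peaks counted, HOXA was the cluster whose ratio lay above that of its surroundings; those of HOXB, HOXC and HOXD lay below, with overlapping intervals in each pair.

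**Figure D2:**
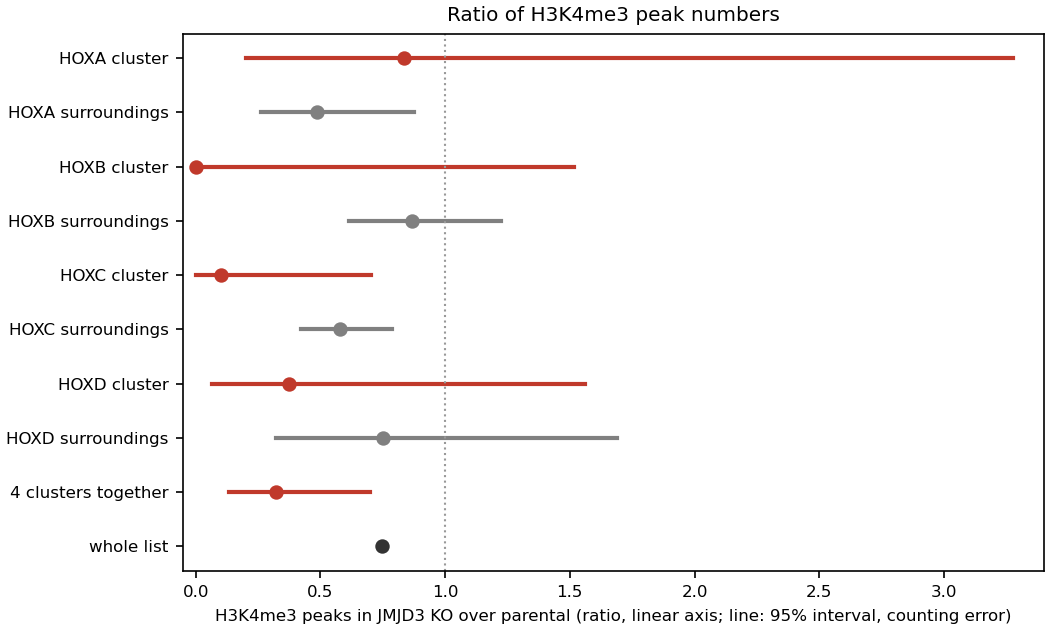
Ratio of H3K4me3 peak numbers in knockout over parental cells (linear axis) for each HOX cluster (red), for the surrounding 1 Mb on either side (grey) and for the whole lists (black); lines are exact 95% intervals of counting error. The point of the 4 clusters together, 0.321, lies left of the whole-list point, 0.745.

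A promoter was called marked where the centre of a peak lay at most 5 kb from a listed start site of the gene, or where a peak spanned that site. By this rule 6 of 33 HOX genes (18.2%, Wilson 95% interval 8.61 to 34.4) were marked with H3K4me3 in knockout cells, against a background of 62.9% of all listed genes. In parental cells 13 of 33 were marked (39.4%, 24.7 to 56.3), against a background of 71.3%. Those marked in both genotypes included HOXA13, HOXC9, HOXD11, HOXD12 and HOXD13. No HOX gene was marked in knockout cells only, where 1.36% of all genes marked in either list were, and 7 of the 13 (HOXA7, HOXA9, HOXB5, HOXC8, HOXC10, HOXC11 and HOXC12) were marked in parental cells only, where the background was 13.1%. Several of these genes share peaks, so they are not independent.

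**Figure D3:**
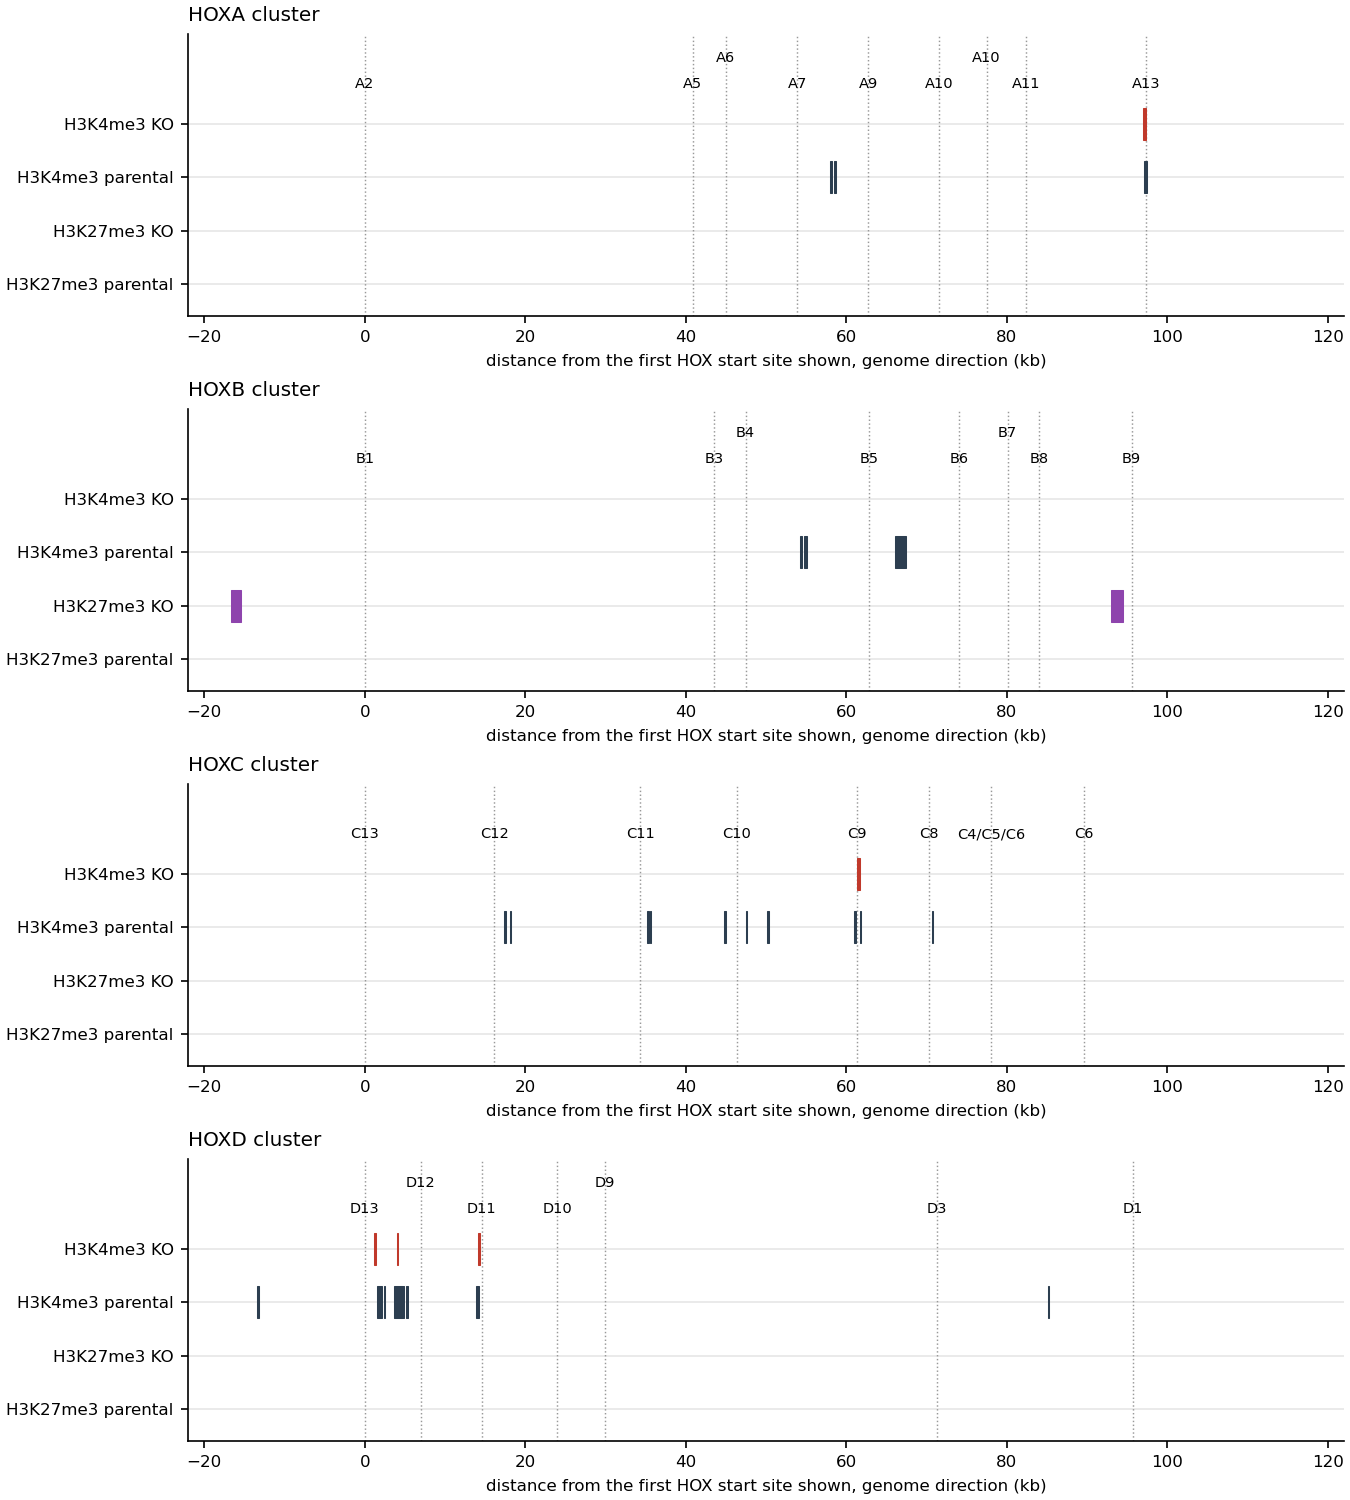
Peaks of each list (rows) along the 4 HOX clusters, by distance in kb from the first HOX start site shown, in the direction of the genome; dotted lines are HOX start sites, a thin outline adds slightly to the narrowest bars, and some HOXA peaks are not drawn. H3K4me3 lies beside HOXA13 in both genotypes, is absent from HOXB in knockout cells, and H3K27me3 appears only as 2 peaks of knockout cells at HOXB.

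In HOXA, on chromosome 7 and read from the minus strand, the middle of the cluster had H3K4me3 in parental cells only, while HOXA13 at its posterior end was marked in both genotypes. Peak positions are those of hg19. HOXA7 and HOXA9, which are active in blood progenitors, shared a region between them that was listed in parental cells only. It consisted of 2 peaks, from 27200424 to 27200669 and from 27200843 to 27201160, together 564 bp wide. The first was centred 4250 bp upstream of the HOXA7 TSS and the second 4148 bp downstream of the HOXA9 TSS, so both genes were called marked from the same 2 peaks and neither had a peak at its own start. In knockout cells neither gene had a peak within 20 kb. HOXA5 and HOXA6 had these same 2 peaks as their only H3K4me3 within 20 kb, at 17259 and 13153 bp.

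HOXA13, a gene of the distal limb and the urogenital tract, had 1 peak of 276 bp in knockout cells, against 1 peak of 360 bp in parental cells, a log2 ratio of -0.38. The knockout peak ran from 27239438 to 27239713 and began 12 bp downstream of the TSS at 27239725, and the parental peak ran from 27239489 to 27239848 across it. They shared 225 bp. Of all HOX genes in all 4 lists, this parental peak was the only one that spanned a TSS, whereas 6.18% of all genes had a spanning H3K4me3 peak in knockout cells and 17.1% in parental cells.

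The HOXA13 promoter is shown because peaks of both genotypes reached it, and the HOXA9 promoter because neither genotype had a peak there. The HOXD11 promoter is shown because of the peaks upstream of its start that are described further on. The windows hold 250 bases before to 50 bases after the RefSeq start (GRCh38.p14: HOXA13 chr7:27200042-27200341, minus strand; HOXA9 chr7:27165488-27165787, minus strand; HOXD11 chr2:176107030-176107329, plus strand), with CG dinucleotides in capitals.
HOXA13: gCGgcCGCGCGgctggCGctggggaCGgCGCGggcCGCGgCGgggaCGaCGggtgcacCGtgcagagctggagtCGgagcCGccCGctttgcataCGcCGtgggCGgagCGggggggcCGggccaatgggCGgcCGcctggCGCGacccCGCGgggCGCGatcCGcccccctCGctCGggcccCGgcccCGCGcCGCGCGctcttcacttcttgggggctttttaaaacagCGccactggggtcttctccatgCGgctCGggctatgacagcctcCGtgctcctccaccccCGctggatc
HOXA9: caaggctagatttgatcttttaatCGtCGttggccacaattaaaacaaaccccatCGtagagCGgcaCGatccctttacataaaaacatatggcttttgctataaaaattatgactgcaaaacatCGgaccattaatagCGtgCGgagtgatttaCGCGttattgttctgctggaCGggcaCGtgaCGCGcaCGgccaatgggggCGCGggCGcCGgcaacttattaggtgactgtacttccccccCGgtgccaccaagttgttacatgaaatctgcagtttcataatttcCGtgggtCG
HOXD11: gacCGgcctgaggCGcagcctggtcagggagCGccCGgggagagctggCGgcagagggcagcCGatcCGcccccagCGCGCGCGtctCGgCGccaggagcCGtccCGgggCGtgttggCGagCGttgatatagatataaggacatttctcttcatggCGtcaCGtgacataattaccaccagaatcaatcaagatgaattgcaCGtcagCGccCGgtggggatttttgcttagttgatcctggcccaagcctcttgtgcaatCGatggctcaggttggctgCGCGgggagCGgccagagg

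HOXA13 had 44 CG dinucleotides in this window, HOXD11 27 and HOXA9 22, where the median over 35116 RefSeq promoters of the same length was 14. Sequences were at hand for 27 promoters of 20 HOX genes, with a median of 22. By H3K4me3 state, the highest CG count per gene had a median of 25.5 (19 to 44) for the 4 matched genes marked in both genotypes, 26.5 (22 to 31) for HOXA7 and HOXA9, and 19 (11 to 36) for 10 listed genes unmarked in both. These ranges overlap; HOXD1, with no promoter peak in either list, had 36. The PBX-HOX motif TGATTGAT, searched on both strands, was found in the promoters of HOXA2 and HOXD11 and in 0.484% of all promoters, and TGATTTAT in 0 of the 27 and in 0.846%. The caudal-type motif TTTATNG was found in 7 of the 27 (9.73% of all promoters), HOXA9 among them, and TTTACNA in 3 (7.7%). The 27 are not independent: HOXA3 has 7 of them, and HOXC4 and HOXC5, each with both motifs, share a listed TSS. The retinoic acid response element of the direct repeat kind was in none, and in 0.0057% of all. A match is a match of letters and was not tested for binding.

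HOXB, on chromosome 17 and also read from the minus strand, had no H3K4me3 in the knockout list within 20 kb of any of its 8 listed genes. In parental cells it held 4 peaks in 2 groups. The first group, from 46662513 to 46662703 and from 46663023 to 46663353, lay upstream of HOXB4, a factor that expands haematopoietic stem cells when overexpressed, with centres 6864 and 7444 bp from its TSS. The second, from 46674388 to 46675285 (898 bp) and from 46675371 to 46675668, lay upstream of HOXB5, which in the mouse marks long-term haematopoietic stem cells, with centres 3733 and 4416 bp from its TSS at 46671103. HOXB5 was thus marked with 1196 bp in parental cells and was unmarked in knockout cells. The 898 bp peak was the widest H3K4me3 peak in any HOX cluster of either genotype. For these last 2 peaks the nearest start site of any gene was that of the non-coding RNA HOXB-AS3, at 1517 and 2200 bp, so by nearest gene HOXB5 was unmarked in both lists.

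In HOXC, on chromosome 12 and the plus strand, a run of narrow parental peaks from HOXC12 to HOXC8 stood against a single knockout peak at HOXC9. The 10 parental peaks were 149 to 273 bp wide, with a median of 213.5 bp. HOXC12 had 2 promoter peaks of 372 bp in parental cells, HOXC11 2 of 426 bp, HOXC10, a gene of the lumbar and hindlimb region, 3 of 614 bp and HOXC8, a gene of the thoracic region, 1 of 209 bp; all were unmarked in knockout cells. In parental cells the nearest centre lay 1305, 914, 1246 and 423 bp downstream of these starts. None of the 10 parental peaks overlapped a knockout peak (0%, Wilson 0 to 27.8), where 52.6% of the whole parental list did. The 10 were narrow beside the median of that list, 359 bp. With only the widest peaks kept, in lists of equal length, 5 of the 10 were left. Neighbouring peaks are not independent, and whether the lack of overlap follows from narrow peaks or from genotype was not tested.

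At HOXC9, a gene of thoracic patterning with its TSS at 54393876, the knockout list had 1 peak of 274 bp and the parental list 2 peaks of 434 bp in sum, a log2 ratio of -0.66. The knockout peak ran from 54393966 to 54394239, and the parental peaks from 54393495 to 54393767 and from 54394317 to 54394477. The knockout peak lay in the space between the parental ones, 198 bp from the first and 77 bp from the second, and overlapped neither. HOXC9 was counted as marked in both genotypes although no base was covered in both. Against its nearest gene alone its width difference had the opposite sign (113 bp wider in knockout cells), since the first parental peak lay nearer to the start of HOXC-AS1.

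In HOXD, on chromosome 2 and the plus strand, the marked region was the posterior end in both genotypes. HOXD13, which shapes the digits, had 2 promoter peaks of 395 bp in knockout cells, against 4 of 1843 bp in parental cells, a log2 ratio of -2.22. HOXD12, a limb gene next to it, had 1 peak of 199 bp in knockout cells, against 4 of 1498 bp in parental cells, a log2 ratio of -2.91. These were the lowest ratios among the 6 HOX genes marked in both, and the 2 genes share peaks, among them the parental peak from 176961189 to 176962008 (820 bp) and the knockout peak inside it, from 176961494 to 176961692, which lie under 5 kb from both starts. The knockout peak nearest to the HOXD13 TSS ran from 176958744 to 176958939, centred 1310 bp downstream, and ended 179 bp before the nearest parental peak, from 176959119 to 176959714.

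HOXD11, which in the mouse is needed for the bones of the forearm, had 1 peak of 185 bp in knockout cells, against 1 of 316 bp in parental cells, a log2 ratio of -0.77. The knockout peak, from 176971682 to 176971866, ended 217 bp upstream of the TSS at 176972083, and the parental one, from 176971453 to 176971768, ended 315 bp upstream, with 87 bp in common. If the start sites of the 2 builds are taken as the same, the knockout peak would reach into the first bases of the HOXD11 window printed above. That window starts 250 bases before the RefSeq start, and the parental peak would end before it. The HOXD11 start differs by 34.5 bases from the median spacing of the cluster between builds, so neither placement is settled. In the anterior part of the cluster, HOXD1 and HOXD3 had only a parental peak of 153 bp, from 177042650 to 177042802, at 10581 and 13921 bp, and no knockout peak within 20 kb.

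**Figure D4:**
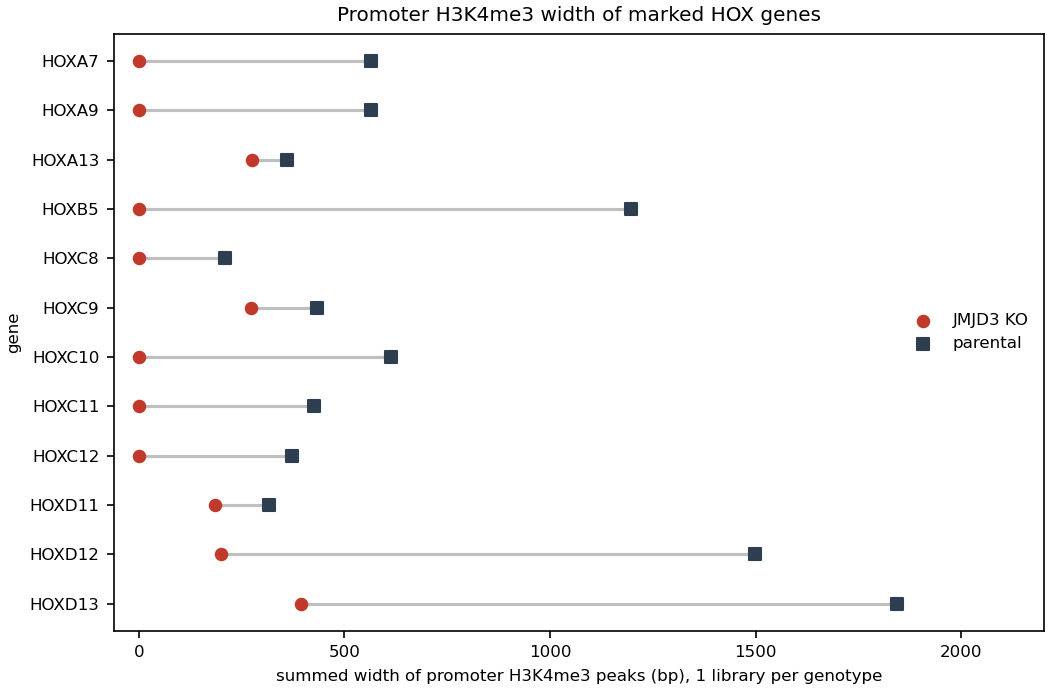
Summed width of promoter H3K4me3 peaks in bp (x axis) for marked HOX genes (rows), in knockout (red circles) and parental (dark squares) cells, 1 library each; 0 means no promoter peak. Each knockout value shown lies left of the parental one, from 276 against 360 bp at HOXA13 to 199 against 1498 bp at HOXD12.

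Among the 6 HOX genes marked in both genotypes, the summed width was smaller in knockout cells at each, with a median log2 ratio of -0.88 and a range of -2.91 to -0.38. The median over all 11190 genes marked in both lists was -1.01, with quartiles of -1.49 and -0.61, so the HOX median lay between these quartiles. A log2 ratio of -1 or lower was found at 2 of the 6 (HOXD12 and HOXD13), against a background of 50.6%. HOX peaks were also narrow as such: the 9 knockout peaks had a median width of 241 bp and the whole knockout list 260 bp, and the 28 parental peaks had a median of 260.5 bp and the whole parental list 359 bp. The widest HOX peak measured 345 bp in knockout cells, where 32.4% of all peaks were wider, and 898 bp in parental cells, where 16% were wider.

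Of the 9 knockout peaks 7 overlapped a parental peak by at least 1 bp (77.8%, Wilson 45.3 to 93.7), where 88.7% of the whole knockout list did. Of the 28 parental peaks 6 overlapped a knockout peak (21.4%, 10.2 to 39.5), where 52.6% of the whole parental list did. Centred within 1 kb of a start site of any gene were 7 of the 9 knockout peaks and 11 of the 28 parental peaks (39.3%), against 62.3% and 58.7% of the whole lists. Most parental HOX peaks were thus centred farther than 1 kb from any start.

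The other 20 HOX genes had no promoter H3K4me3 in either genotype. Just outside the limit of 5 kb lay HOXA2, with the nearest centre at 5831 bp in knockout and 5558 bp in parental cells, and HOXB6 and HOXB4, at 6815 and 6864 bp in parental cells; just inside it lay HOXA7 and HOXA9 at 4250 and 4148 bp. HOXC4, HOXC5 and HOXC6 share a listed TSS at 54410635, and their nearest centre lay 16533 bp upstream in knockout cells and 7323 bp upstream in parental cells. HOXD9 and HOXD10, of the posterior HOXD cluster, had the HOXD11 peak as their nearest, at 15639 and 9718 bp in knockout and 15802 and 9881 bp in parental cells. HOXA10 and HOXA11 had theirs at 19695 and 14740 bp in knockout and 12954 and 14833 bp in parental cells. HOXA10 has 2 listed start sites. Its knockout distance is from the start at 27219880 and its parental one from that at 27213955, so the 2 do not compare. HOXB3, HOXB7, HOXB8 and HOXC13 had a parental peak at 10797, 12864, 16782 and 17443 bp and no knockout peak within 20 kb. HOXB1 and HOXB9 had no H3K4me3 peak within 20 kb in either genotype. In all, 16 of 33 HOX genes had an H3K4me3 peak under 20 kb away in knockout cells and 31 in parental cells, where 75.6% and 85.0% of all listed genes did. HOX and other genes alike are counted only if any list has a peak of either mark under 20 kb away. That rule raises the HOX shares and the shares of all genes, for H3K27me3 too, and the 6 unlisted HOX genes are left out.

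**Figure D5:**
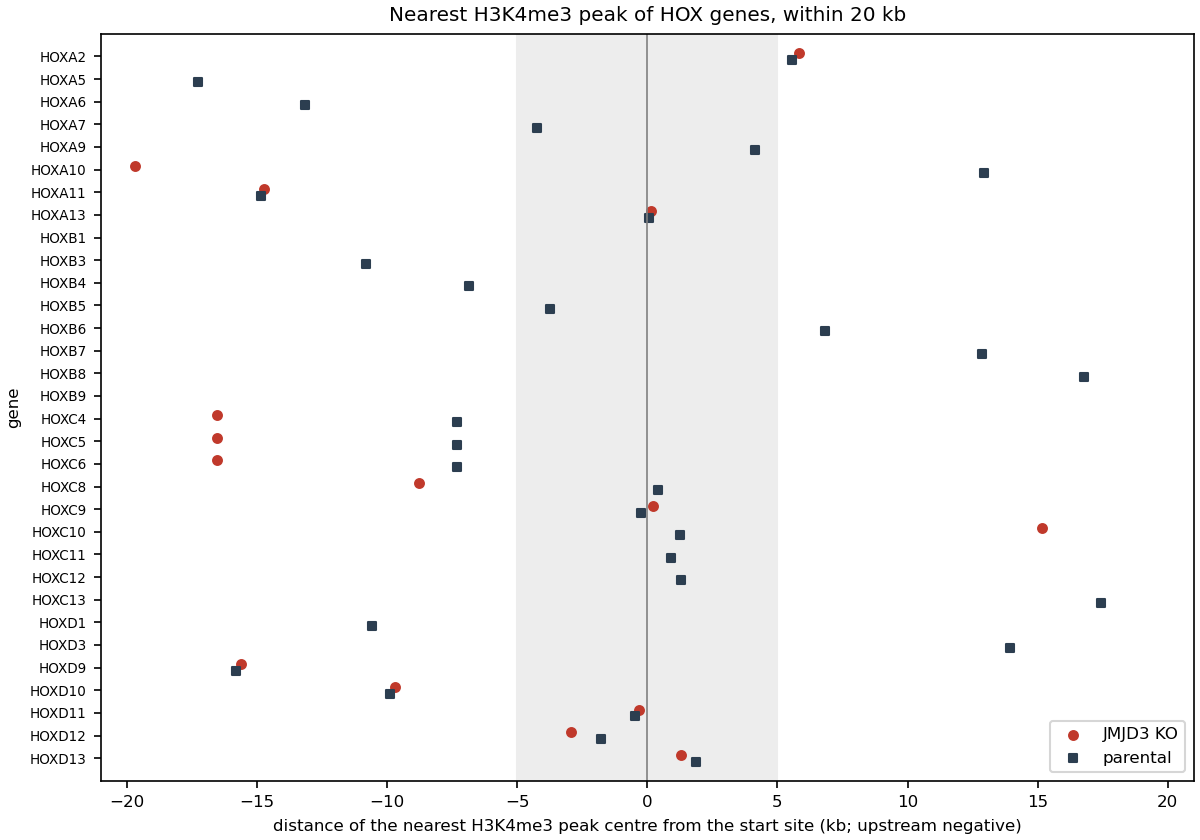
Distance in kb from the start site to the nearest H3K4me3 peak centre for HOX genes (rows), with upstream negative, in knockout (red circles) and parental (dark squares) cells; no point means no peak under 20 kb, and the grey band is the promoter window of 5 kb. In the HOXB rows the points are all parental.

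The HOX genes had 2 H3K27me3 peaks near them in knockout cells, both at HOXB, and 0 in parental cells. Within 20 kb, 5 of 33 HOX genes had a peak in knockout cells (15.2%, against 13% of all listed genes) and 0 of 33 in parental cells, against 12.9% of all listed genes. At the promoter, 1 of 33 was marked in knockout cells (3.03%, Wilson 0.537 to 15.3), where the background was 4.97%, and 0 of 33 in parental cells, where it was 5.11%. The knockout shares lay near those of all genes, and the 5 genes rest on the same 2 peaks. The gene marked at its promoter was HOXB9, a gene of thoracic patterning, under a peak of 1508 bp from 46701249 to 46702756, centred 1833 bp downstream of its TSS at 46703835. The same peak was the only H3K27me3 within 20 kb of HOXB6, HOXB7 and HOXB8. A second knockout peak of 1307 bp, from 46591589 to 46592895, lay outside the cluster, 16031 bp downstream of HOXB1. Neither overlapped a parental peak, and the interval of the share that overlap, 0 to 65.8%, is too wide to compare with the 29.6% of the whole knockout list. Both peaks were wider than the median of that list, 1032 bp. No HOX gene had both marks at its promoter in either genotype; over all genes, 152 (0.84%) had both in knockout cells and 208 (1.15%) in parental cells.

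Non-coding RNAs of the clusters shared several of the HOX peaks. Of 29 listed names 17 were in the files. Of these, 4 had promoter H3K4me3 in knockout and 10 in parental cells, beside 62.9% and 71.3% of all genes. The 4 included HOTTIP, HOXC-AS1 and HOXC-AS2. HOTTIP, which starts beside HOXA13 and binds WDR5, had 276 and 360 bp from the peaks of HOXA13. HOTAIR, an RNA of the HOXC cluster that binds Polycomb proteins, had 426 bp in parental cells only, and HOXB-AS3 1527 bp in parental cells only.

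The clusters also encode microRNAs of the miR-10 and miR-196 families, and miR-196 is known to target the HOXB8 transcript. They are shown because the MIR196A2, MIR196B and MIR10A loci each had more H3K4me3 peaks within 20 kb in the parental list. The mature sequences are from RefSeq (GRCh38.p14: miR-196a-5p of MIR196A2 chr12:53991762-53991783, plus strand; miR-196b-5p chr7:27169528-27169549, minus strand; miR-10a-5p chr17:48579904-48579926, minus strand), with the seed, bases 2 to 8, in capitals.
hsa-miR-196a-5p: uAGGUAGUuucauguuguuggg
hsa-miR-196b-5p: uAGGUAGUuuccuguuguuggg
hsa-miR-10a-5p: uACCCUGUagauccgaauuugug

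miR-196a-5p and miR-196b-5p share a seed, and miR-10a-5p has another. MIR196A2, in HOXC, had 231 bp of promoter H3K4me3 in parental cells, with a centre at -2650 bp from its start, and none in knockout cells, with 1 peak within 20 kb in knockout and 8 in parental cells. MIR196B, in HOXA, and MIR10A, in HOXB, were unmarked at the promoter in both, with 0 knockout and 2 and 4 parental peaks within 20 kb. MIR196A1, in HOXB, had 1 H3K27me3 peak within 20 kb in knockout cells and 0 in parental cells.

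Of 14 listed neighbours in the files, 10 had promoter H3K4me3 in knockout and 12 in parental cells, beside 62.9% and 71.3% of all genes. The median log2 width ratio over the 10 was -0.95. Marked in parental cells only were SKAP2, an adaptor protein gene beside HOXA (539 bp), and EVX2, the homeobox gene next to HOXD13 (241 bp). HNRNPA1 and CBX5, which share a broad region beside HOXC, had 3011 and 3011 bp in knockout cells, against 5562 and 5249 bp in parental cells. None of the 14 had promoter H3K27me3, which 4.97% of all genes had in knockout and 5.11% in parental cells.

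HOX proteins bind DNA with PBX and MEIS cofactors. Of 7 cofactor genes in the files, 4 had promoter H3K4me3 in knockout and 5 in parental cells. PBX2 had 1665 bp in knockout cells, against 3423 bp in parental cells, PBX3 493 and 1203 bp, and MEIS2 550 and 2745 bp, while MEIS3 had 160 bp in parental cells only. MEIS3 also had promoter H3K27me3 in both, 2999 bp in knockout and 1879 bp in parental cells. Of 21 regulators of HOX transcription, 17 had promoter H3K4me3 in knockout and 19 in parental cells, where 62.9% and 71.3% of all genes had it. The median log2 width ratio was -1.16 over the 4 cofactors and -1.18 over the 17 regulators marked in both, beside -1.01 over all genes. PSIP1, which tethers KMT2A and menin to chromatin, had 885 bp and CBX2, a Polycomb subunit, had 1771 bp in parental cells only. KMT2A, the main H3K4 methyltransferase of HOX promoters, had 1604 bp in knockout cells, against 3830 bp in parental cells, and the H3K27 methyltransferase gene EZH2 had 1026 and 2619 bp. Promoter H3K27me3 was listed for 1 of the 21 regulators in each genotype, beside 4.97% and 5.11% of all genes. It was CDX4, with 833 bp in knockout and 274 bp in parental cells.

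Of 38 homeobox genes of other developmental families in the files, 9 had promoter H3K4me3 in knockout and 16 in parental cells, beside 62.9% and 71.3% of all genes, and none in knockout cells only. DLX1 (987 bp), IRX3 (914 bp), LHX2 (752 bp) and IRX6 (642 bp) had the largest summed promoter widths of those marked in parental cells only. Promoter H3K27me3 was listed for 4 of the 38 in knockout cells and 6 in parental cells, beside 4.97% and 5.11% of all genes. Of these, 1 had it in both genotypes, 3 in knockout cells only and 5 in parental cells only.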

How the data were processed

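The 4 files are peak lists joined to RefSeq transcripts, 1 per immunoprecipitated library. Alignment and peak tools, per the submitters' processing notes, include MACS2 2.1.1, SAMtools and BWA 0.7.10, with the hg19 build; their settings are not given in the sources used here. Each score that the authors deposited depends on the distance alone and was not used. Per the file headers the other values are peak start, end and distance; starts were read as counted from 0 and printed counted from 1.

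Distinct peaks were counted by position. Start sites were computed as peak centre minus distance. Promoter state, summed width and overlap were computed with Python 3.11.15, pandas 2.3.3 and numpy 2.4.6, and intervals with scipy 1.17.1; the functions were tested on simulated data. Motif and CG counts used RefSeq promoters of GRCh38.p14, and strand was taken from there; HOXD3 is placed 6728.5 bases off the spacing of the files and was not printed. The HOX genes and the related lists were chosen with earlier results of these data known. Every HOX gene is in the counts, while 1 HOX gene and 1 cofactor gene are not reported here by name, nor is the promoter of that HOX gene drawn; of each related list, up to 4 members per mark are named, those whose state differs first and then the widest, except H3K27me3 of other homeobox genes, given as counts, while the microRNAs, KDM6B, KMT2A, EZH2 and non-coding RNAs on HOX peaks were added after their values were seen. Alternatives were windows of 1 and 10 kb, peaks over the TSS, nearest gene, lists of equal length, a least width of 300 bp, joined peaks and stricter overlap.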

Additional observations from a re-analysis of the deposited data

How the results depend on the processing

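No HOX gene was marked with H3K4me3 in knockout cells only under any alternative, beside a main background of 1.36%. A count of 0 lies near that background, which was not computed for the alternatives. No HOX gene had both marks either, but no window run could have changed that count. Parental cells had no H3K27me3 within 20 kb of a HOX gene. Knockout cells had it at HOXB alone, where they had no H3K4me3 within 20 kb. Within 1 kb, 4 HOX genes were marked in knockout and 6 in parental cells, 2 of them in parental cells only. An H3K4me3 centre lay within 1 kb at 55.6% of all genes in knockout and 64.7% in parental cells. HOXB9 lost its H3K27me3 call (0 genes), where 1.03% of all genes had a centre within 1 kb in knockout cells. Within 10 kb, 20 HOX genes were marked in parental cells, 11 of them only there, and 2 had H3K27me3 in knockout cells. The share over all genes was not computed for 10 kb or for peaks of at least 300 bp. With spanning peaks alone, 0 HOX genes were marked in knockout and 1 in parental cells, beside 6.18% and 17.1% of all genes. By that rule 0 had H3K27me3, beside 0.63% of all genes in knockout and 0.691% in parental cells. With peaks of at least 300 bp, 1 HOX gene was marked in knockout and 8 in parental cells, and the median log2 width ratio was -2.56, from 1 gene. Then HOXA held 1 knockout (345 bp) and 5 parental peaks (2717 bp), HOXB 2 parental peaks, HOXC 0 peaks (0 bp) in either genotype, and HOXD 0 knockout (0 bp) and 3 parental peaks (1732 bp). With peaks up to 1 kb apart joined, HOXA held 2 knockout (2000 bp) and 3 parental peaks, HOXB 2 parental, HOXD 5 parental, and HOXC covered 3323 bp in parental cells. With lists of equal length, parental HOXC held 5 peaks (1226 bp). Between the outermost start sites, HOXB held 1 knockout H3K27me3 peak (1508 bp). With 50% of the peak covered, 3.57% of parental HOX peaks overlapped a knockout peak; with reciprocal overlap the share was 11.1% of knockout and 3.57% of parental peaks. The HOXC9 width difference turned to 113 bp for the nearest gene and to 1 bp with lists of equal length. Of the values of single genes under an alternative, 34 stayed within 1.5 times, 48 moved further or to 0 without a change of sign, and these 2 reversed. The calls rest on few peaks near the limit of width, and depth is unknown. No paired analysis was possible because each genotype and mark has 1 library.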

Other observations

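The knockout peak at HOXC9 lay between 2 parental peaks without touching them. Over the whole H3K4me3 lists, 2812 knockout peaks overlapped no parental peak, and 496 of them (17.6%) had a parental peak within 1 kb on both sides. Of 15865 parental peaks without knockout overlap, 1402 (8.84%) had a knockout peak within 1 kb on both sides. For such peaks the state of a gene can be the same in both genotypes while no base is shared.

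Around the HOXC cluster, within 1 Mb on either side, the H3K27me3 lists held 7 knockout peaks covering 7953 bp and 0 parental peaks. Around HOXA they held 1 and 0, around HOXB 0 and 2, and around HOXD 0 and 0. The whole H3K27me3 lists held 3234 knockout and 3578 parental peaks. Of these, 29.6% of the knockout and 27.2% of the parental peaks overlapped a peak of the other genotype, so most peaks were listed in 1 genotype only. What sets the numbers around the clusters was not tested.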
